A study of Mus musculus with 4 samples.

Results

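The 38 genes described here are S phase and DNA replication genes, a set of transcripts that cells hold while they copy their DNA. They were found by symbol in the feature table of each library, and all 38 were among its 32285 genes. Their levels were read in the rostral neocortex of mouse embryos at E15.5, by 10x Genomics 3' single-cell RNA sequencing of 2 i4F-Nes libraries and 2 littermate CTR libraries. i4F-Nes embryos carried Nestin-Cre, the doxycycline-inducible cassette i4F for the Yamanaka factors (Pou5f1, Sox2, Klf4 and Myc) and ROSA-STOP-rtTA, the transactivator that is silent until Cre removes a stop. CTR embryos carried i4F and ROSA-STOP-rtTA without Cre. Dams of both groups received doxycycline at 0.2 mg/ml in the water over 4 days that began at E10.5 and ended at E14.5. CTR embryos thus had the drug too, and it was withdrawn before collection. Nestin-Cre is active in neural progenitors, so the factors could be switched on in progenitors and inherited by their progeny. The labels give neither the sex nor the number of embryos behind a library, and p-values therefore measure the spread between these 4 libraries only.

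In the developing cortex, radial glia line the ventricle, divide there and give rise to intermediate progenitors, which divide away from the ventricle and produce neurons. Neurons have left the cell cycle. Before S phase the MCM helicase is loaded on origins with the help of Cdc6, then activated with Cdc45 and GINS, and polymerases follow with the clamp Pcna while ribonucleotide reductase and thymidylate synthase supply nucleotides. Many of these genes are targets of E2F transcription factors, which become active when cyclin-dependent kinases phosphorylate the retinoblastoma proteins late in G1.

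The promoters of the genes were searched for 4 E2F motif forms, TTTCCCGC, TTTGGCGC, TTTCGCGC and TTTGCCGC, on both strands, in the window from 250 bases before to 50 bases after the start in RefSeq on GRCm38.p6. Of the 38 genes, 29 had such a window and 13 of those (44.8%) held at least 1 match, whereas 704 of all 27025 genes with a window (2.61%) did. With TTTCCCGC and TTTGGCGC only, 11 of 29 genes (37.9%) held a match and 1.80% of all genes. By role, matches were found in 5 of 7 helicase and licensing genes, 3 of 7 polymerase and fork genes, 3 of 6 chromatin and histone supply genes, 2 of 6 repair and control genes and 0 of 3 nucleotide supply genes. The motif CCAAT, a site of NF-Y, was found for 21 of the 29 genes (72.4%), and for 41.1% of all genes with a window. Among 49 G2 and M phase genes with a window, 1 held an E2F form (2.04%) and 38 held CCAAT (77.6%). The 250 bases before the start are shown 5' to 3' for 4 genes with a match, from the helicase and chromatin roles, and for Rrm2, a nucleotide supply gene without one, since that role held none. Capitals mark the motif letters as they read on the gene's strand, and a run longer than 8 letters is a pair of overlapping matches on opposite strands. A match is a description of letters and not a measured site.
Mcm6: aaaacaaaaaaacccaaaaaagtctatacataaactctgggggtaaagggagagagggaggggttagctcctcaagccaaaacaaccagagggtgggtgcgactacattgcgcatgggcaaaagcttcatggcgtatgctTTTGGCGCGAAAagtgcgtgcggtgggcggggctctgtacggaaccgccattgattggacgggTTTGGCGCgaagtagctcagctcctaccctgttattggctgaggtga
Mcm5: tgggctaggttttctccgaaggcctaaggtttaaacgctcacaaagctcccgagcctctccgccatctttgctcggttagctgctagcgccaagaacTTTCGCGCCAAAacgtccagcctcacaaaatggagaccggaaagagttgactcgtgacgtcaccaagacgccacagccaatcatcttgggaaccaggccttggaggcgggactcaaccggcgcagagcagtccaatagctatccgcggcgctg
Hells: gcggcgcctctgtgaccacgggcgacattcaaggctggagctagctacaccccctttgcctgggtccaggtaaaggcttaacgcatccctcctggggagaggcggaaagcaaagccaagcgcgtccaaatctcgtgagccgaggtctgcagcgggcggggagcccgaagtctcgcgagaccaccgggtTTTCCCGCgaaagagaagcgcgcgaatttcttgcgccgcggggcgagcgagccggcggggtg
Cdca7: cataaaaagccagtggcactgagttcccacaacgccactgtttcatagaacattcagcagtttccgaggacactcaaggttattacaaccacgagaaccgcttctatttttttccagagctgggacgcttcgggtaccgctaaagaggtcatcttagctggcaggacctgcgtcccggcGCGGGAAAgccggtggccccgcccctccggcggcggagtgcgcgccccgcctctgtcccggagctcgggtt
Rrm2: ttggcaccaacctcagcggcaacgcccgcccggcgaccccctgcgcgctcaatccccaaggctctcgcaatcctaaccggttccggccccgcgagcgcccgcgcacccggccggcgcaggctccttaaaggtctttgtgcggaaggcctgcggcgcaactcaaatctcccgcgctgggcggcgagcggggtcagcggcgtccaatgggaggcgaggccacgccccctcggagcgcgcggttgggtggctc
The stretches lie at chr1:128359706-128359955 on the minus strand for Mcm6, a subunit of the helicase, chr8:75109259-75109508 on the plus strand for Mcm5, another subunit, chr19:38930740-38930989 on the plus strand for Hells, a chromatin remodeller, chr2:72475969-72476218 on the plus strand for Cdca7, its partner, and chr12:24708004-24708253 on the plus strand for Rrm2, the small subunit of ribonucleotide reductase. The matches of Mcm6 centred 106, 102 and 43 bases before the start and those of Mcm5 149 and 145 bases before it, while the single matches of Hells and Cdca7 centred 58 and 67 bases before it.

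The libraries held 7942 to 9646 barcodes and 94052724 to 153706503 UMIs each, and 26641 cells were kept, with a median of 11342 to 15140 UMIs per cell. Pairs of libraries shared 20 to 31 barcodes. In CPM, a gene's UMI counts scaled to the library's total, Pou5f1 stood at 30.4 and 10.8 in the i4F-Nes libraries and at 1.87 and 1.30 CPM in the CTR libraries, and Nanog at 16.2, 6.92, 0.103 and 0.0367 CPM. For Sox2, Klf4 and Myc, also factors of the cassette, the groups overlapped. With the libraries in the same order, Sox2 measured 86.3, 75.2, 93.3, 52.4 CPM. Klf4 measured 3.48, 3.43, 5.43, 2.34 CPM, while Myc measured 13.0, 10.2, 17.7, 10.0 CPM. CTR replicate 1 stood apart in Xist, at 0.0103 CPM against 849 to 1158 CPM in the other libraries, and in Ddx3y, at 41.3 CPM against 0.049 to 0.865 CPM. The labels call the cells cortical neurons, and neurons were the largest class, but the cells also included the progenitors described next.

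Cells were sorted into classes by counting marker genes that are not among the 38, in cells thinned to 4000 UMIs. Of the kept cells, 7264 of 7498 and 4985 of 6407 in i4F-Nes replicates 1 and 2 and 5761 of 6046 and 5875 of 6690 in CTR replicates 1 and 2 were deep enough. The gates held 2020 radial glia-like cells, 1824 intermediate progenitor-like cells and 14618 neuron-like cells from all 4 libraries. They also held 706 reprogrammed progenitor cells (371 and 334 in the i4F-Nes libraries, 0 and 1 in CTR), which carried markers such as Cd109, Lgals7, S100a6, Nanog and Pou5f1. A further 476 Krt8 Crabp2 Ebf neuron-like cells came from the i4F-Nes libraries only (215 and 261). The names rest on these rebuilt gates: 465 of the intermediate progenitor-like cells had just the number of markers needed, and 715 cells fell short by 1 marker. The intermediate progenitor-like gate allowed up to 10 of 22 neuron markers in a cell, and the radial glia-like gate up to 6. The intermediate progenitor markers included Eomes, Neurog2, Btg2, Gadd45g, Elavl4 and Celsr3. How many young neurons the intermediate progenitor-like class held was not tested, nor was the effect of the choice of markers on the shares given below. The S score of a cell is the summed UMIs of the 38 genes among its 4000, and a cell is called S-high at 8 or more, a limit set so that at most 1% of the neuron-like cells of all libraries reach it. Neuron-like cells, which should not replicate, therefore show the background.

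Radial glia-like cells were mostly S-high, and intermediate progenitor-like cells were so less than radial glia-like cells in every library. In i4F-Nes replicates 1 and 2 and CTR replicates 1 and 2, 78.1% (exact binomial 95% interval 75.0 to 81.1), 75.4% (70.7 to 79.7), 78.8% (75.3 to 82.1) and 68.3% (63.1 to 73.2) of radial glia-like cells were S-high. The shares in intermediate progenitor-like cells were 24.5% (20.9 to 28.4), 39.7% (33.6 to 46.0), 22.9% (19.7 to 26.4) and 22.8% (18.9 to 27.1). The lowest radial glia-like library thus stood above the highest intermediate progenitor-like library, and the mean gap was 47.7 percentage points. In neuron-like cells, on which the limit was set, 1.09%, 0.957%, 0.866% and 0.917% were S-high. Median depths before thinning were 14541 to 18377, 11647 to 15296 and 12762 to 15763 UMIs in the 3 classes. These intervals cover counting error only.

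**Figure D1:**
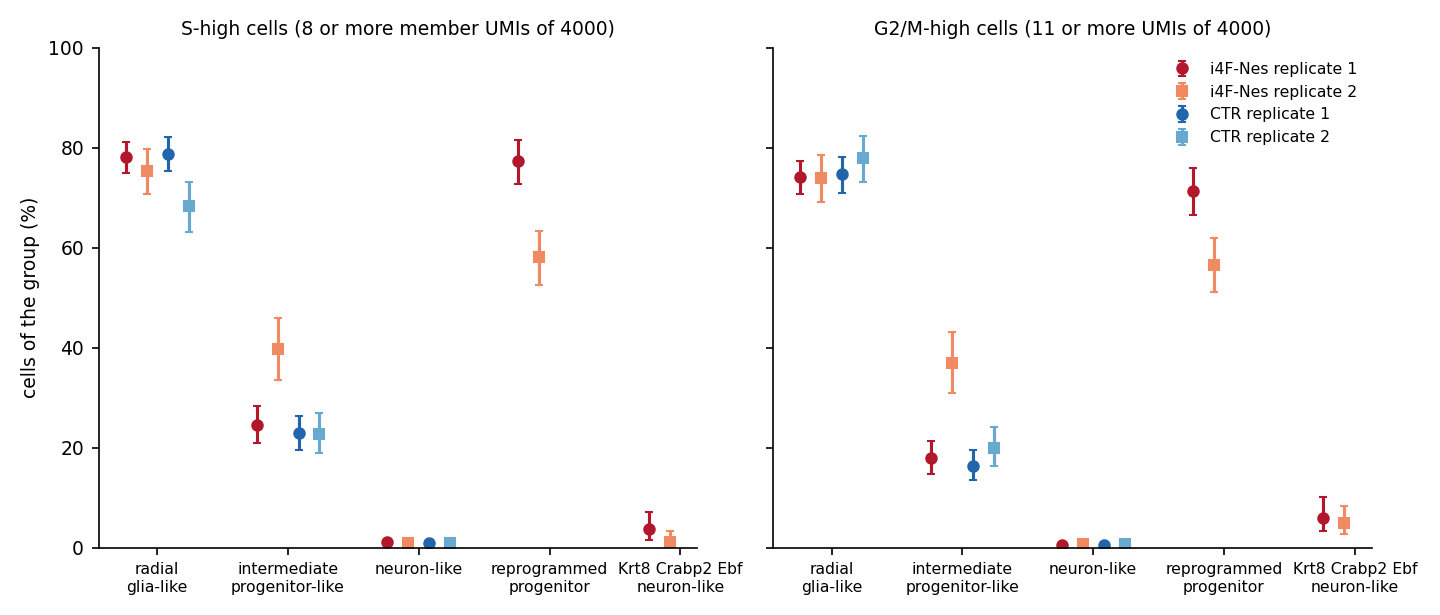
Share of S-high cells (left) and of cells high for 54 G2 and M phase genes (right, 11 or more UMIs of 4000), in percent of each class and library, with exact binomial 95% intervals. Radial glia-like cells lie between 68.3% and 78.8% S-high, intermediate progenitor-like cells between 22.8% and 39.7%, with i4F-Nes replicate 2 highest.

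The mean S score was 18.4, 16.8, 18.4 and 14.9 UMIs in radial glia-like cells and 8.19, 11.9, 7.54 and 7.31 UMIs in intermediate progenitor-like cells, against 2.59 to 2.74 UMIs in neuron-like cells. Among S-high cells alone, however, the mean score was 19.8 to 22.3 UMIs in radial glia-like cells and 21.4 to 24.7 UMIs in intermediate progenitor-like cells, so these ranges overlapped. The intermediate progenitor-like class thus had a smaller share of S-high cells, whose mean score was not lower. Since S-high cells were chosen by this same score, their mean cannot tell whether the score per cell differed between the classes. The remaining neuron-like UMIs came from few genes: Nasp, a histone chaperone, gave 27.4% and Mcm7, a helicase subunit, 9.21% of the 38 genes' UMIs there, and the leading 5 genes gave 54.2%. In radial glia-like cells the leading 5 (Nasp, Pcna, Mcm7, Rrm2 and Cdca7) gave 30.7%.

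**Figure D2:**
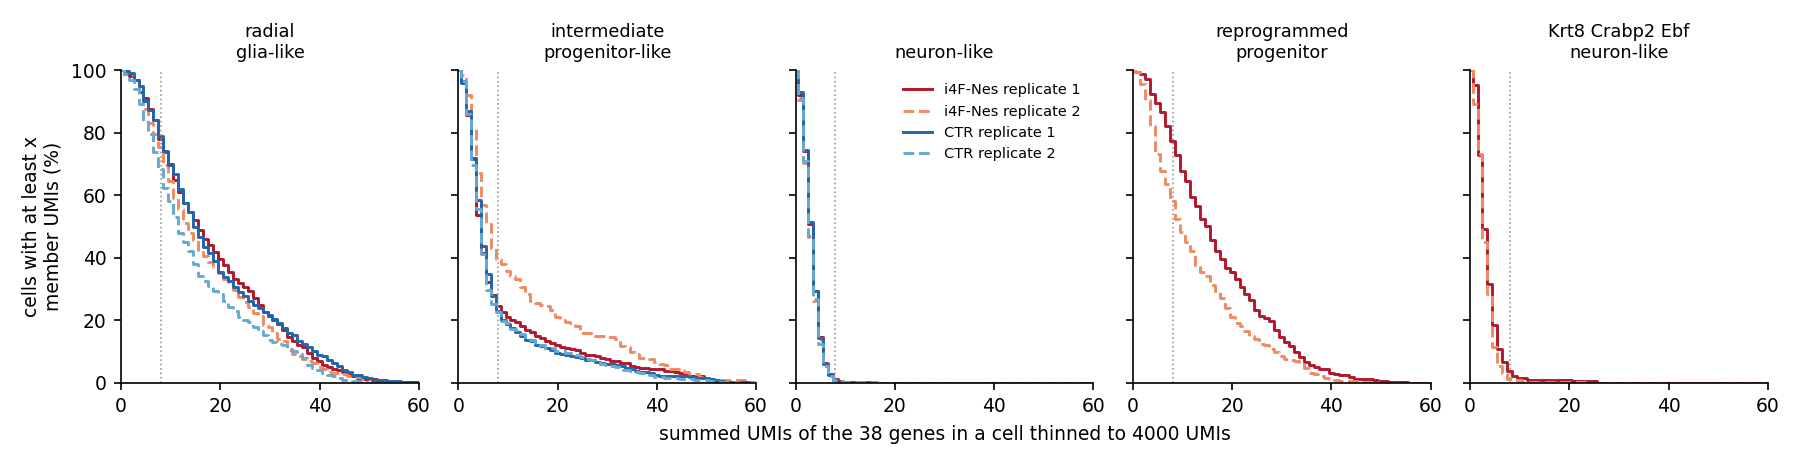
Share of cells (percent, vertical axis) with at least the number of S phase gene UMIs on the horizontal axis, in cells thinned to 4000 UMIs, by class and library. The dotted line marks 8 UMIs; neuron-like curves fall before it, and the intermediate progenitor-like curve of i4F-Nes replicate 2 lies above the other libraries.

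Intermediate progenitor-like cells were next compared with radial glia-like cells over UMI counts summed per class and library, with the library as a block. Of the 38 genes, 33 fell and 0 rose at an adjusted p under 0.05 (edgeR's quasi-likelihood test with Benjamini-Hochberg adjustment over 13476 genes), where 32.4% of all genes fell and 34.8% rose, 67.2% in all. The median log2 fold change was -0.86 over the 38 genes and 0.03 over all genes. In every library 30 genes were lower in intermediate progenitor-like cells, a pattern that 34.7% of all genes had, and 0 were higher in every library (36.9% of all genes). Without i4F-Nes replicate 2 all 38 genes fell, Cdc45, Clspn, Fen1, Rrm2 and Ubr7 included. Sums of a class do not separate fewer replicating cells from less RNA per cell.

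Among helicase and licensing genes, 9 of 10 fell, with a median of -1.03. Mcm3, a subunit of the MCM ring, stood at 47.3, 78.1, 41.4 and 44.9 CPM in intermediate progenitor-like cells (libraries in the order given above) and at 147, 132, 158 and 131 CPM in radial glia-like cells. Its groups did not overlap, and it fell by 1.49 ± 0.21 on the log2 scale (SE, edgeR adjusted p = 0.00295). Gins2, a subunit of the GINS complex that activates the helicase, stood at 21.5, 28.2, 15.9 and 19.5 CPM, where radial glia-like cells had 63.2, 63.7, 59.7 and 52.2 CPM, and it fell by 1.54 ± 0.11 (edgeR adjusted p = 1.19e-07). Gmnn, which blocks a second loading of the helicase, fell by 1.49 ± 0.18 (edgeR adjusted p = 0.00128). The falls were smallest for Mcm7 and Mcm2, by 0.33 and 0.31, and the call for Mcm2 was lost when any library other than i4F-Nes replicate 2 was left out. Cdc45 did not pass the test (log2 -0.52, edgeR adjusted p = 0.0554).

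Of the polymerase and fork genes, 8 of 10 fell, with a median of -0.74. Pcna, the sliding clamp, stood at 104, 176, 92.4 and 95.01 CPM in intermediate progenitor-like cells and at 186, 214, 211 and 194 CPM in radial glia-like cells. Its fall was 0.84 ± 0.16, and i4F-Nes replicate 2 came closest to the radial glia-like range. Rpa2, which coats single-stranded DNA, fell by 0.98, and Pola1 and Prim1, which make the primers, fell by 0.82 and 0.69. Fen1, which trims Okazaki fragments, and Clspn, a checkpoint mediator at the fork, did not pass the test, at log2 -0.19 and -0.65 (edgeR adjusted p = 0.104 and 0.0673).

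Nucleotide supply genes had the smallest median of the roles, -0.49, and 2 of 3 fell. Tyms and Rrm1 fell by 0.65 and 0.49, and Rrm2 did not pass the test: it stood at 157, 209, 141 and 112 CPM in intermediate progenitor-like cells and at 215, 165, 225 and 160 CPM in radial glia-like cells (log2 -0.34 ± 0.19, edgeR adjusted p = 0.192), and the groups overlapped. All 7 chromatin and histone supply genes fell, from Uhrf1, which guides maintenance DNA methylation, by 1.33 to Nasp by 0.30. The call for Tyms was lost without i4F-Nes replicate 1 or CTR replicate 2. Without the library block the call for Nasp was lost (edgeR adjusted p = 0.102). Of the repair and control genes 7 of 8 fell, with Ubr7 the exception (log2 -0.20). E2f8, a repressor among the E2F factors, stood at 6.25, 18.7, 4.55 and 4.31 CPM, where radial glia-like cells had 26.1, 30.7, 21.9 and 21.7 CPM, and its fall of 1.78 ± 0.28 was the largest of the 38 (edgeR adjusted p = 0.00178).

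**Figure D3:**
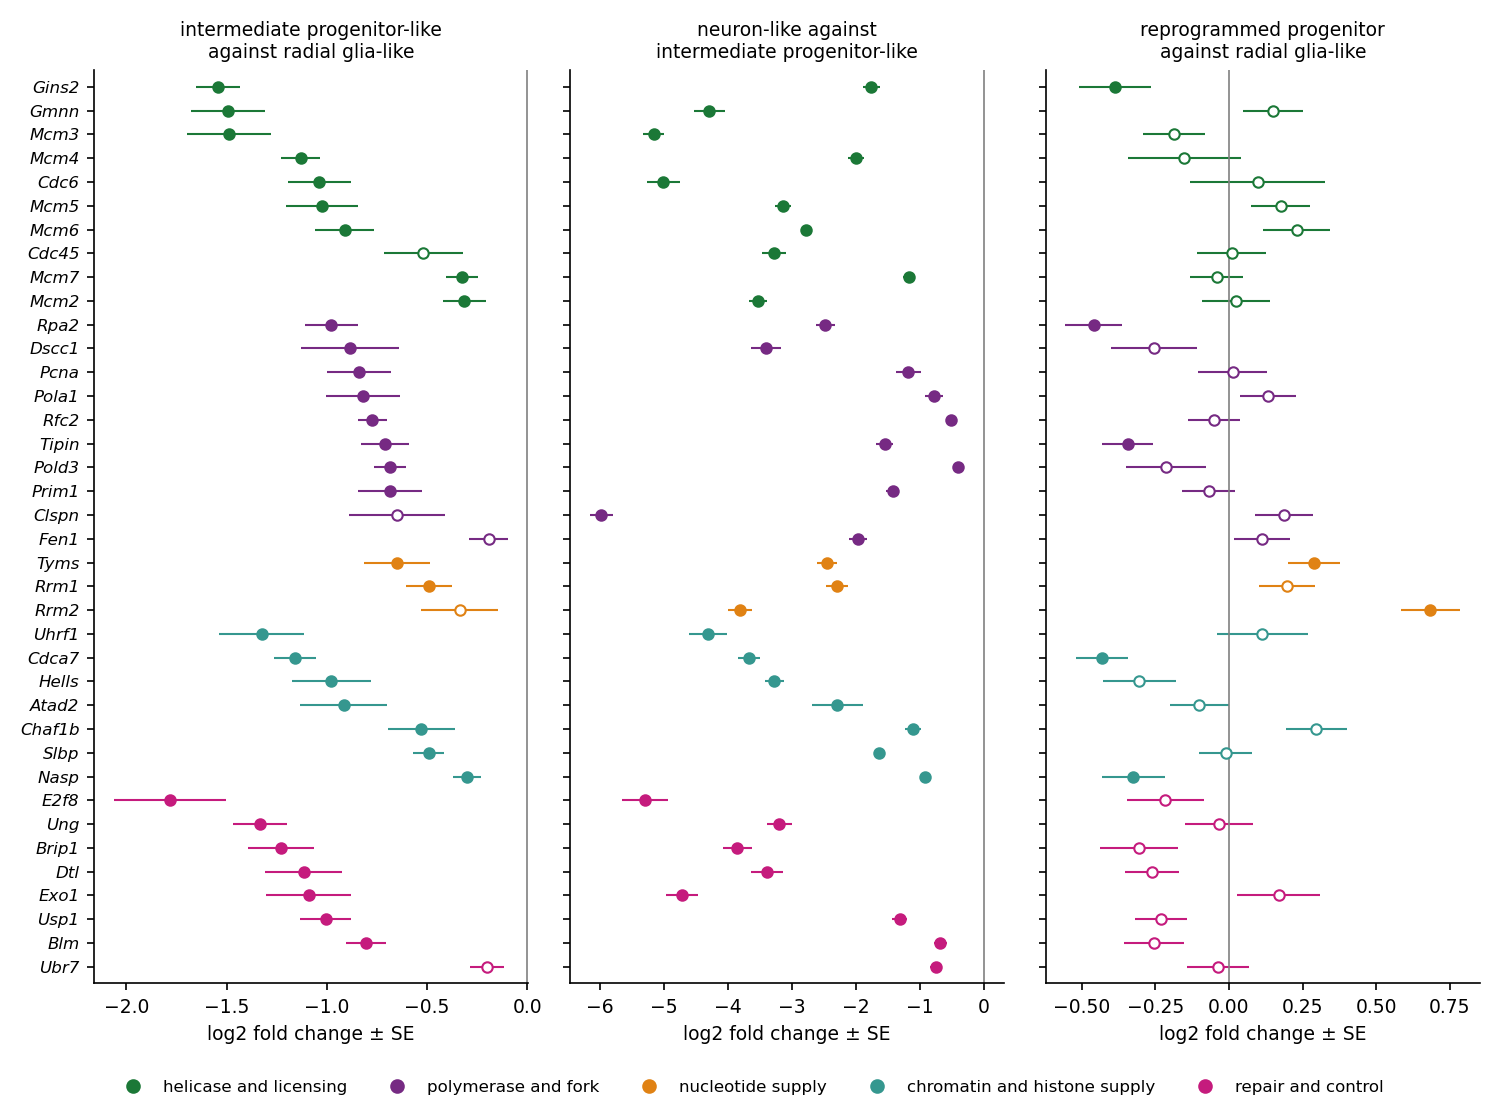
Log2 fold change ± SE of each of the 38 genes in 3 comparisons of cell classes, coloured by role; filled points passed an edgeR adjusted p of 0.05, and the horizontal scales differ. All points lie below 0 in the left and middle panels (33 and 38 filled), while the right panel has 2 filled points above 0 and 5 below.

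In 68 other replication genes from a list of the pathway, 52 fell and 4 rose in intermediate progenitor-like cells. Ccna2, the cyclin of S phase and G2, fell by 1.66, the origin recognition subunit Orc1 by 1.54 and the ligase Lig1 by 1.21. The 4 that rose were Cdc25a, a phosphatase that activates cyclin-dependent kinases (0.73), the activator E2f1 (0.64) and the origin recognition subunits Orc3 (0.31) and Orc4 (0.27), the last not without i4F-Nes replicate 1. E2f1 stood at 67.4 to 82.5 CPM in intermediate progenitor-like cells and at 39.9 to 50.5 CPM in radial glia-like cells, while E2f8 moved the other way. Of the 54 G2 and M phase genes 52 fell, with a median of -1.46. Cdkn1c, an inhibitor of cyclin-dependent kinases that was singled out after its values were seen, rose by 5.11 ± 0.21 (edgeR adjusted p = 6.10e-07), from 2.21 to 4.86 CPM in radial glia-like cells to 66.9 to 140 CPM.

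Within the intermediate progenitor-like class, cells with a Cdkn1c UMI had a lower S-high share in all 4 libraries: 10.2%, 18.9%, 10.2% and 11.6% of them, against 30.1%, 43.3%, 27.9% and 25.6% of the cells without. Cells with a Cdkn1c UMI made up 27.9%, 14.7%, 28.4% and 20.2% of the class, so the library with the largest S-high share, i4F-Nes replicate 2, had the fewest. No test was made of this split.

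Rrm2, Cdc45 and Fen1 did not pass the test between the classes. Among cells high for S phase and for G2 and M phase genes, they stood higher in intermediate progenitor-like than in radial glia-like cells. In cells high both for the other S phase genes and for the G2 and M phase genes, Rrm2 stood on average at 605 thinned CPM, the CPM taken over thinned cells without TMM scaling (508 to 667 over libraries) in intermediate progenitor-like cells and at 299 (218 to 392) in radial glia-like cells. Cdc45 stood at 101 (84.3 to 111) against 48.9 (40.6 to 65.2), and Fen1 at 167 (130 to 193) against 91.3 (76.1 to 101). The ranges of these 3 genes did not overlap. In such cells 16 of the 38 genes were higher in the intermediate progenitor-like class in all 4 libraries and 1, Gins2, was lower in all 4, and the median ratio was 1.15. Of 7960 other genes, detected in at least 5% of such cells of either class in each library and outside the G2 and M phase list, 19.1% were higher and 23.5% lower in all 4 libraries, with a median ratio of 0.99. These are descriptions of 64 to 83 cells per library in the class, with no test, since the split used the other members of the list. In cells high for the S phase genes only, Rrm2 and Cdc45 averaged lower in the class, at 113 and 11.7 thinned CPM. Radial glia-like cells had 123 and 29.9 there. Fen1 averaged higher in the class, at 68.3 against 50.8. The library ranges overlapped for each of these genes, and no test was made.

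From intermediate progenitor-like to neuron-like cells all 38 genes fell at an adjusted p under 0.05 by edgeR's quasi-likelihood test, in every library, where 33.1% of 15834 genes fell and 36.9% rose, 70% in all. Of all genes 35% were lower and 40% higher in every library. The median log2 fold change was -2.47, and 0.04 over all genes. Clspn fell by 5.98, from 23.7 to 65.9 CPM down to 0.394 to 0.723 CPM. E2f8 fell by 5.29, Mcm3 by 5.16 and Cdc6, the loader of the helicase, by 5.01. The smallest falls were those of Pold3, a polymerase delta subunit (0.40), Rfc2, a clamp loader subunit (0.52), the helicase Blm (0.68), Ubr7 (0.76) and Pola1 (0.78). Nasp kept 172 to 218 CPM in neuron-like cells, against 303 to 477 CPM in intermediate progenitor-like cells. Of the 68 other replication genes 61 fell and 2 rose, Mcmbp (log2 0.32) and Orc4 (0.14), whose call was lost without i4F-Nes replicate 1, i4F-Nes replicate 2 or CTR replicate 2.

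The 38 genes were not all high in the same cells. Radial glia-like cells were split into those high for the other S phase genes only and those also high for the G2 and M phase genes, the gene in question being left out of the score. Between 58.1% and 61.6% of radial glia-like cells were high for both lists and 10.3% to 18.2% for the S phase genes only. Ung, the uracil glycosylase, averaged 121 thinned CPM in the S-only cells (103 to 135 over libraries) and 57.8 (52.7 to 67.2) in cells high for both. Mcm3 averaged 279 (260 to 309) and 164 (130 to 180), Mcm6 275 and 194, Hells 201 and 144, and Cdca7 247 and 173. These 5 were lower in cells with G2 and M phase transcripts in all 4 libraries, as were 14.2% of 8037 other genes detected in at least 5% of the cells.

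In the opposite direction, 15 genes were higher in cells high for both lists in all 4 libraries, as were 12.7% of the other genes. Rrm2 averaged 123 (84.9 to 147) in the S-only cells and 299 (218 to 392) in cells high for both, Tyms 94.1 and 209, and Clspn 28.5 and 95.3. Brip1, a helicase of interstrand crosslink repair, averaged 8.62 and 43.4, and Gmnn 129 and 212. The 3 nucleotide supply genes were all in this group, together with E2f8, Atad2, Cdc45, Fen1, Uhrf1, Usp1, Exo1, Tipin and Pold3. E2F forms were found on both sides of this order: Clspn, Uhrf1 and Pold3 held a match as did Mcm3, Mcm6, Hells and Cdca7, while Ung and Rrm2 held none. Pcna (283 and 279) and Nasp (564 and 581) had nearly the same level in both kinds of cell. Usp1, a deubiquitinase of repair factors, was also higher in cells with G2 and M phase transcripts only (137) than in S-only cells (111) in all 4 libraries, and Cdc6 had no UMI in cells low for the S phase genes.

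**Figure D4:**
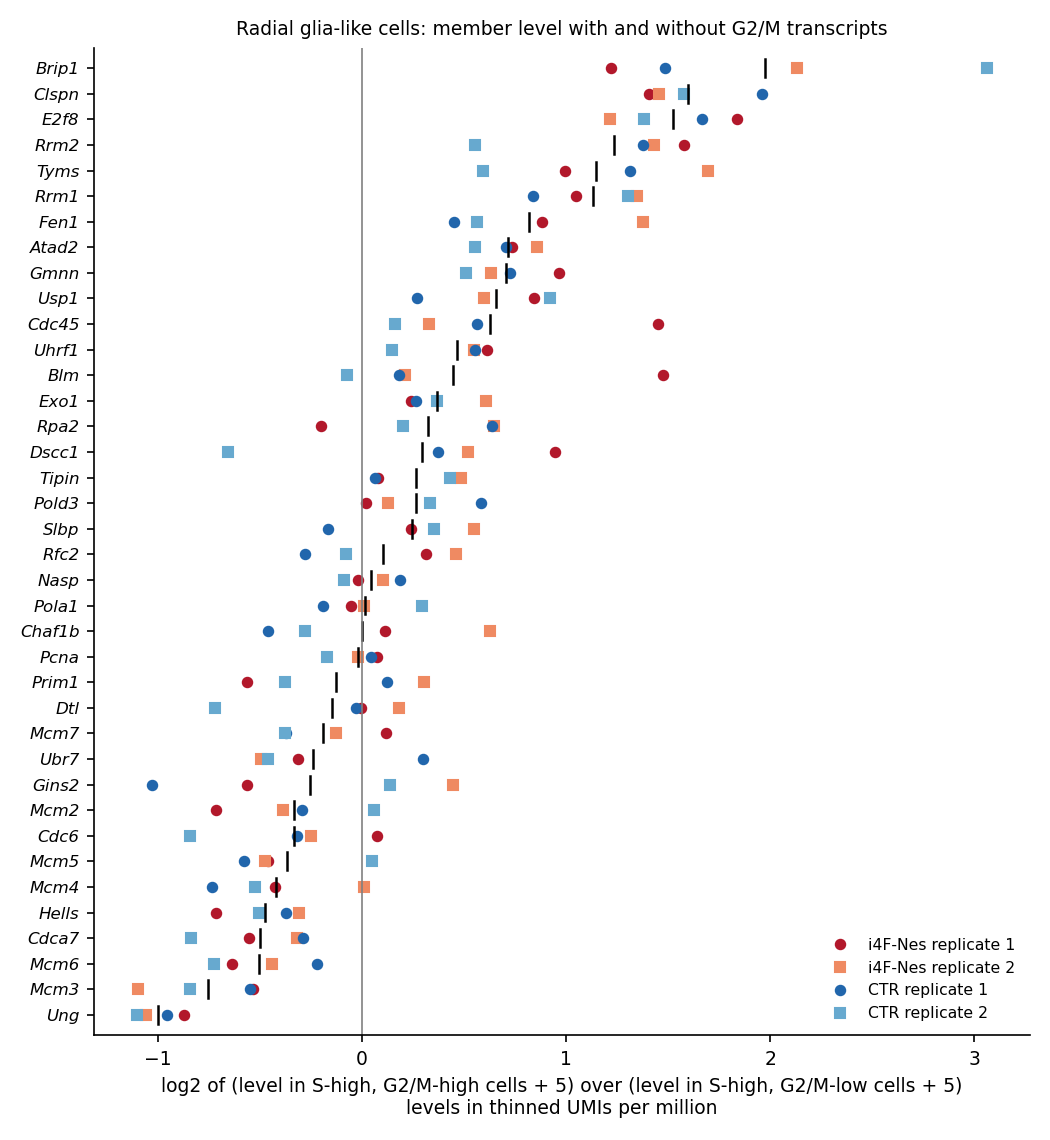
Log2 ratio of each gene's level in radial glia-like cells high for both lists over its level in cells high for S phase genes only, with 5 added to each level in thinned CPM; points are libraries and bars their mean. Ung, Mcm3, Mcm6, Cdca7 and Hells lie to the left of 0 in all 4 libraries, and Brip1, Clspn, E2f8, Rrm2, Tyms and Rrm1 to the right.

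The same split was made in other classes. It did not match the summed S score of the compared cells, so a shift of most genes in the same direction does not show an order among them. By the full list, S-only cells numbered 48, 23, 59 and 31 in the intermediate progenitor-like class and 55 and 41 among reprogrammed progenitor cells. In intermediate progenitor-like cells 27 genes were higher in cells high for both lists in all 4 libraries and none was lower in all 4 (13.1% and 13.7% of 7394 other genes), with Rrm2 at 113 in S-only cells and 605 in cells high for both. In reprogrammed progenitor cells 26 genes were higher in both libraries and 5 lower in both, among them Mcm3 and Mcm6 (27.9% and 28.5% of 8427 other genes), with Rrm2 at 173 and 421. Over thinned radial glia-like cells, the genes outside the list whose UMIs followed the summed list most closely among 7597 compared included Pclaf, a Pcna-binding factor (mean Pearson r over 4 libraries 0.61), Dut (0.55), Lig1 (0.55) and Hat1 (0.45), then Tk1, Tubb5, Ranbp1, Prim2 and Dek (0.38 to 0.40). These are correlations across cells of the same libraries and are given as a description.

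Reprogrammed progenitor cells, found in the i4F-Nes libraries, had lower mean S scores at equal depth than radial glia-like cells in both replicates. Their means were 16.7 and 12.4 UMIs in replicates 1 and 2, against 18.4 and 16.8 UMIs in radial glia-like cells. Of the radial glia-like cells, 78.1% and 75.4% were S-high in these replicates. Reprogrammed progenitor cells had 77.4% (72.8 to 81.5) and 58.1% (52.6 to 63.4). Both shares were below those of the radial glia-like cells, by less in replicate 1, and no test over libraries was made with 2. The cells were deeper before thinning, with medians of 36780 and 27753 UMIs, and their summed radial glia markers stood at 3897 and 5427 CPM against 17288 to 20442 CPM in radial glia-like cells. Cells with a Pou5f1 or Nanog UMI were S-high in 83.4% and 72.2% of cases, those without in 71.2% and 53.7%. For Cdkn1a, the p21 inhibitor, the shares were 77.2% and 64.6% with a UMI and 77.4% and 56.1% without.

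In sums per library, 2 of the 38 genes rose and 5 fell from radial glia-like to reprogrammed progenitor cells (edgeR, library as a block), where 24.4% of 14395 genes rose and 20.7% fell, 45% in all. In both libraries 10 genes were higher and 15 lower, as were 42.6% and 40.5% of all genes. These sums were not at equal depth. Of the 10, only Rrm2 was higher in both libraries in thinned cells, and Fen1 and Mcm5 were lower in both. Mcm6, Clspn, Tyms, Rrm1, Gmnn and Pola1 were lower in replicate 2 there, and Chaf1b in replicate 1. Of the 38 genes outside those 10, all but Cdc6, Prim1 and Brip1 were lower in both libraries in thinned cells. Fen1 had 64.7 and 41.2 thinned CPM against 75.5 and 63.5 in radial glia-like cells, and Mcm5 had 114 and 70.4 against 129 and 78.6. The median log2 fold change of the list was -0.04 (0.01 over all genes). Rrm2 had 386 and 244 CPM where radial glia-like cells had 221 and 166 CPM, and it rose by 0.68 ± 0.10 (edgeR adjusted p = 0.00203). Tyms had 168 and 163 CPM where radial glia-like cells had 134 and 138 CPM, and it rose by 0.29 ± 0.09 (edgeR adjusted p = 0.037). In thinned cells Rrm2 was higher in both libraries, at 366 and 174 thinned CPM against 263 and 161. Tyms was higher there in replicate 1 only, at 156 and 139 against 143 and 147. Rpa2 fell by 0.46, Cdca7 by 0.43, Gins2 by 0.39, Tipin, a fork protection factor, by 0.34 and Nasp by 0.32.

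With DESeq2's Wald test 2 of these 7 calls remained, Rrm2 and Cdca7, and without the library block none did. Pcna, with 220 and 189 CPM where radial glia-like cells had 191 and 216 CPM, did not pass the test. Of the 68 other replication genes 9 rose and 8 fell: Rnaseh2a rose by 0.60 and Rfc5 by 0.56, and Mms22l fell by 1.13 and Rnaseh2b by 0.76. The G2 and M phase genes moved more, with 28 of 54 lower and 2 higher and a median of -0.31. Cdkn1a rose by 5.05 ± 0.16 (79.9 and 92.4 CPM against 2.11 and 3.32 CPM, edgeR adjusted p = 9.04e-06), and Ccnd1 and Ccnd2, the D cyclins, rose by 1.99 and 1.45.

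Krt8 Crabp2 Ebf neuron-like cells were close to the background in S score, with 3.72% (1.62 to 7.20) and 1.15% (0.238 to 3.32) S-high cells against 1.09% and 0.957% of the neuron-like cells of the same libraries. Of 36 genes tested against neuron-like cells (Cdc6 and E2f8 were too low), 6 rose and 3 fell by edgeR, where 21.3% of 15493 genes rose and 20.9% fell, 42.3% in all. In both libraries 20 genes were higher and 8 lower, as were 39.7% and 43.7% of all genes. Gmnn had 11.7 and 5.66 CPM where neuron-like cells had 2.92 and 2.54 CPM, and it rose by 1.63 ± 0.34 (edgeR adjusted p = 0.00749). Cdca7 had 12.6 and 12.7 CPM where neuron-like cells had 4.89 and 4.49 CPM, and it rose by 1.43 ± 0.24 (edgeR adjusted p = 0.00303). Clspn, Rrm2, Hells and Rrm1 rose by 3.13, 1.15, 1.10 and 0.76, and Pola1, Pold3 and Nasp fell by 0.68, 0.53 and 0.51. The rise of Clspn lay near the floor, with a UMI in 0.93% and 0.77% of these thinned cells. It had 3.49 and 1.92 thinned CPM there and 0.357 and 0.577 in neuron-like cells. With marked doublets kept, 6 calls passed, and those for Clspn, Rrm2, Pola1 and Pold3 were lost. G2 and M phase genes rose more widely, 41 of 54 with a median of 1.83, and Cdkn1a stood at 460 and 290 CPM against 2.72 and 2.18 CPM. Summed reprogrammed progenitor markers stood at 2222 and 1694 CPM in these cells, with 8 and 6 of 13 at 10 CPM or more, and their part in these values was not tested.

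The study's main comparison, i4F-Nes against CTR, was then made within each class. In radial glia-like cells no difference in the 38 genes was detectable with these 4 libraries: 0 genes passed (edgeR, 13197 genes, 0.00758% of all genes called) and 0 by DESeq2, 1 had an unadjusted p under 0.05 (Brip1), and the log2 fold changes ran from -0.29 to 0.41 with a median of 0.00. Both i4F-Nes libraries stood above both CTR libraries for 8 genes, or below for 2 (17.7% and 14.1% of all genes). In the cells thinned to equal depth they stood above for 11 and below for 0, and the share over all genes was not computed at that depth. Pcna was measured at 196 and 219 CPM in the i4F-Nes libraries, with 217 and 199 CPM in the CTR libraries, and Mcm6 at 166 and 143 CPM, with 189 and 133 CPM in CTR, so the groups overlapped. The S-high shares differed by 3.20 percentage points, i4F-Nes minus CTR (76.8% ± 1.93 and 73.6% ± 7.43, SD, n = 2 each, exact two-sided permutation p = 1.0, where 0.333 is the smallest p that 2 against 2 allow). Without CTR replicate 2 the difference was -2.05.

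In intermediate progenitor-like cells the fold changes of all 38 genes were above 0, and none passed the test. By edgeR 0 of 38 genes were called (12475 genes, 0.00802% of all genes), and by DESeq2 0. An unadjusted edgeR p under 0.05 was found for 15 of the 38, and for 466 of all 12475 genes. The median log2 fold change was 0.48, against -0.01 over all genes. For 25 genes both i4F-Nes libraries stood above both CTR libraries, and for 0 below, where 16.3% and 13.8% of all genes did so. Uhrf1 had the smallest unadjusted p, with 33.9 and 53.3 CPM in i4F-Nes and 23.3 and 23.6 CPM in CTR (log2 0.88 ± 0.23, edgeR adjusted p = 0.9999). Atad2, a chromatin ATPase, had 58.5 and 119 CPM in i4F-Nes, with 40.2 and 49.8 CPM in CTR (log2 0.97 ± 0.33), and E2f8 at 5.96 and 18.4 CPM against 4.42 and 4.17 CPM (1.42 ± 0.51).

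**Figure D5:**
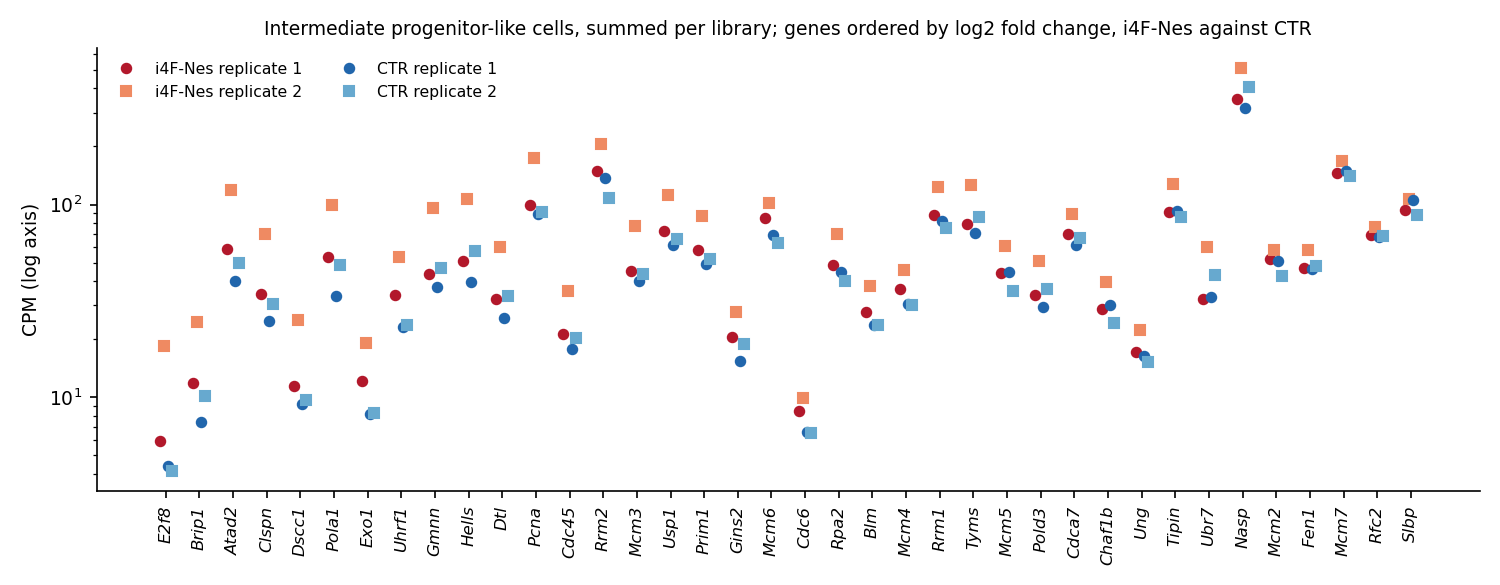
CPM on a log axis of the 38 genes in intermediate progenitor-like cells, 1 point per library, ordered by log2 fold change of i4F-Nes against CTR. In these sums i4F-Nes replicate 2 is the highest library for each of the 38 genes, and i4F-Nes replicate 1 lies near the CTR libraries.

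In the cells thinned to equal depth the mean was above CTR for 37 of the 38 genes. Mcm5 was the exception there, at 28.5 and 33.7 thinned CPM in i4F-Nes, with 44.0 and 34.0 in CTR, although its sums gave log2 0.36. At equal depth both i4F-Nes libraries stood above both CTR libraries for 21 genes and below for 1, Mcm5. The share over all genes was not computed at that depth. Slbp, a histone RNA-binding protein, was highest in i4F-Nes replicate 1 at equal depth. These values rested mainly on i4F-Nes replicate 2. Without it the median log2 fold change was 0.16, and without i4F-Nes replicate 1 the median was 0.70. The S-high shares were 32.1% ± 10.7 in i4F-Nes and 22.8% ± 0.0942 in CTR (SD, n = 2 each), a difference of 9.27 percentage points (exact permutation p = 0.333, the smallest possible) that was 1.69 without i4F-Nes replicate 2. That library also had the highest radial glia markers (summed 3381 CPM, against 2773 to 3079 CPM elsewhere, 15 of 18 at 10 CPM or more in each library) and the lowest neuron markers (2678 against 3068 to 3493 CPM) in this class. Its reprogrammed progenitor markers summed to 142 CPM, against 74.6 CPM in i4F-Nes replicate 1 and 37.6 and 42.5 CPM in CTR, with 3 of 13 at 10 CPM or more and Cytl1 at 0. Cytl1, Anxa1, Timp1 and Nanog were at 0 in both CTR libraries and none of the 13 was at 0 in i4F-Nes replicate 1. The part of these markers in the result was not tested. The 68 other replication genes had 66 fold changes above 0 with a median of 0.44, and the 54 G2 and M phase genes 54 with a median of 0.67, none called. Whether the response differed between intermediate progenitor-like and radial glia-like cells was not tested.

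In neuron-like cells 37 of the 38 genes were tested, 0 were called by edgeR or DESeq2 (0% of 16189 genes by edgeR) and 0 had an unadjusted p under 0.05. The median log2 fold change was -0.01. Gmnn was higher in both i4F-Nes libraries, and Pcna, Tyms and Mcm4 were lower in both, where 14.2% and 12.1% of all genes behaved so.

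Summed over all kept cells, which mixes the make-up of a library with expression, 37 of 38 fold changes were above 0 with a median of 0.40, against -0.02 over all genes. None passed by edgeR (2.28% of 18547 genes called, 2.26% higher and 0.0162% lower). By DESeq2 4 passed, where 6.18% of all genes did. An unadjusted edgeR p under 0.05 was found for 10 of the 38, and for 2310 of all 18547 genes. Both i4F-Nes libraries stood above both CTR libraries for 24 genes (22.1% of all genes) and below for 0 (19%). Brip1 had 8.69 and 9.87 CPM in the i4F-Nes libraries, with 5.54 and 4.19 CPM in CTR (log2 0.93 ± 0.23, edgeR adjusted p = 0.15). Clspn had 20.5 and 22.1 CPM where CTR had 13.5 and 9.45 CPM (0.89 ± 0.22), and Gmnn at 43.0 and 48.5 CPM against 29.8 and 19.7 CPM (0.89 ± 0.23). Mcm2, at 26.4 and 18.6 CPM against 24.5 and 11.1 CPM, was an example of overlap. CTR replicate 2 was the lowest library for these 4 genes.

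The size of this difference depended on which CTR library was used. Without CTR replicate 1 the median was 0.76, and without CTR replicate 2 the median was 0.16. Radial glia-like cells made up 10.1% and 7.34% of the thinned cells in i4F-Nes and 10.1% and 5.80% in CTR, so CTR replicate 2 also had the smallest share of the class with the highest S scores. Without the reprogrammed progenitor and Krt8 Crabp2 Ebf neuron-like cells the median was 0.11 and 0 genes passed. Over the same sums the proliferation marker Mki67 rose by 1.12 ± 0.12 (76.0 and 88.7 CPM against 38.6 and 37.3 CPM, edgeR adjusted p = 0.0224), and without those cells its log2 fold change was 0.64 and its call was lost, as 0 of 18214 genes passed there.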

How the data were processed

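The authors deposited whole-number UMI counts per gene and cell barcode for each library, made with Cell Ranger on mm10 per the submitters' processing notes and with cellranger 7.0.1 per the file headers. Counts come from 3' ends and were not divided by gene length.

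Cells with at least 1000 UMIs and 500 genes and at most 10% mitochondrial UMIs were kept, and 410 to 627 barcodes per library were removed as doublets (the highest Scrublet scores in scanpy 1.11.5, at a rate of 0.8% per 1000 barcodes). Cells with 4000 UMIs or more were thinned to that depth and gated on marker genes outside the list, needing 9 of 18 radial glia, 6 of 12 intermediate progenitor, 11 of 22 neuron, 4 of 13 reprogrammed progenitor or 4 of 10 Krt8 Crabp2 Ebf markers. Unthinned counts were summed per class and library and tested with edgeR 4.0.16 (R 4.3.3), using TMM scaling, a filter on low counts, the quasi-likelihood test and Benjamini-Hochberg adjustment over all genes tested, with a threshold of 0.05. CPM are TMM-scaled within each comparison, so a class can have slightly different CPM in 2 comparisons. Comparisons of classes had the library as a block. DESeq2 1.42.0, other scaling, filters, gates, depths, doublets kept and each library left out were alternatives. The fits were tested on simulated data. Shares of cells were compared by exact permutation over libraries.

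The 38 genes, the other lists and the markers were chosen with earlier results of these data known. Genes of the list were named where they passed the threshold, by size of fold with a mean of at least 10 CPM in the higher group, and otherwise by mean CPM, in the order of their roles. Some genes were named outside this rule after their values were seen, as low, unchanged or overlapping examples. Promoter sequences are from RefSeq on GRCm38.p6. Some genes that this rule would name are not reported here.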

Additional observations from a re-analysis of the deposited data

How the results depend on the processing

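With 2 libraries a group, a difference between i4F-Nes and CTR in the 38 genes depended on the setting, and the cause was not tested. Over all kept cells the count of genes past the threshold was 0, but 4 with DESeq2's Wald test and 0 to 9 when single libraries were left out. In intermediate progenitor-like cells it was 0, but 6 with no filter on low counts and 0 to 18 when single libraries were left out. In radial glia-like cells it was 0 in every setting run. The replicate numbers are shared between the groups, but the labels do not say that they pair the embryos. Same-numbered libraries deviated together (r = 0.44 to 0.77), with only 2 pairs. With a replicate block the fit called 2 of the 38 genes over all kept cells, where it called 7.63% of all genes. It called 6 in intermediate progenitor-like cells (1.15% of all genes), 1 in neuron-like cells (4.35%) and 0 in radial glia-like cells (0.197%). The S-high difference in radial glia-like cells ran from -2.05 to 8.45 percentage points when single libraries were left out, with -2.05 without CTR replicate 2, and in intermediate progenitor-like cells from 1.69 to 16.8. Between classes, the count for reprogrammed progenitor against radial glia-like cells was 7, but 2 with DESeq2's Wald test and 0 with no library block, and for Krt8 Crabp2 Ebf neuron-like cells 9, but 5 with no library block. Leaving out a library was not run for these 2 comparisons, which have 2 libraries a class. Intermediate progenitor-like against radial glia-like cells gave 28 to 38 genes and neuron-like against intermediate progenitor-like cells 38 in every setting run. Of 710 values of named genes under an alternative, 10 changed direction, none of them of a gene past the threshold, 41 lost the call and 29 gained one. In radial glia-like cells the i4F-Nes log2 fold change of Pcna ran from -0.086 to 0.080 and that of Mcm6 from -0.30 to 0.19 when single libraries were left out, and Pcna was at 0.0006 with doublets kept. In the same way Slbp in intermediate progenitor-like cells ran from -0.072 to 0.18, below 0 without i4F-Nes replicate 2 or CTR replicate 2, and Mcm2 over all kept cells from -0.096 without CTR replicate 2 to 1.02 without CTR replicate 1. Pcna in reprogrammed progenitor cells was 0 with DESeq2's Wald test and -0.0072 with doublets kept.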
